A study of Homo sapiens with 6 samples.

Results

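Long intergenic noncoding RNAs (lincRNAs) are transcripts that do not code for protein and whose genes mostly lie between coding genes. Here they are described in SZ95 cells, an immortalised human cell line from the sebaceous gland, the skin gland that secretes lipid-rich sebum. Members were chosen by their level: a gene was included where the deposited table gave it the type lincRNA, at least 300 bases of merged exon and a mean FPKM of 2 or more across the 6 libraries of both groups. FPKM are fragments per kilobase of exon, scaled for sequencing depth, so they compare levels between genes of unequal length. The difference between groups was not part of the rule. The rule took 129 of the 58735 genes in the table, or 129 of 7339 lincRNAs of that length. All 129 are counted in every number below, and 128 are shown singly.

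The study transfected SZ95 cells with a mock plasmid (genotype WT, 3 libraries) or with a TRPV3 overexpression plasmid (3 libraries), each at 24 h. TRPV3 is a calcium-permeable cation channel opened by warmth and best known from keratinocytes. The design text asks about TRPV3 in sebocyte inflammation and calls the replicates biological. Both groups are 1 cell line, and the sources used here do not give the plasmid's promoter or insert.

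Some lincRNAs act where they are made, others as scaffolds or decoys in the nucleus or cytoplasm, and many have no known role. Some carry small nucleolar RNAs (snoRNAs) or microRNAs in their introns or exons, which are released when the host transcript is processed. Others start beside a coding gene and run away from it on the opposite strand, from a promoter region that both use. In epithelial cells the best known are the nuclear RNAs NEAT1, the scaffold of paraspeckles, and MALAT1, which is found in nuclear speckles.

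The sequences of 3 groups of lincRNAs show what these transcripts carry. NORAD, the most abundant lincRNA of these cells, is known to bind Pumilio proteins, which repress messenger RNAs. Its GENCODE 29 transcript of 5339 bases held the Pumilio motif TGTANATA 15 times on its own strand, and the first, the third and the last of these are printed with the motif in capitals and 10 bases on either side. They start at transcript bases 761, 1241 and 4599.
NORAD site 1: ggaaggcctgTGTATATAatatgaaaaa
NORAD site 3: aatcacatttTGTAAATAcctttttgtt
NORAD site 15: ttagcctattTGTAAATAcctttgttat
MIR222HG (chromosome X, minus strand) contains the genes of a pair of microRNAs that restrain cell cycle inhibitors and share their seed (bases 2 to 8, in capitals), given here as RNA from RefSeq on GRCh38.p14. They lie at chrX:45746180-45746202 and chrX:45747036-45747056.
hsa-miR-221-3p: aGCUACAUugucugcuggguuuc
hsa-miR-222-3p: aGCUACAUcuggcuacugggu
The snoRNA hosts SNHG4, SNHG19 and SNHG8 are shown from 10 bases before to 20 bases from their RefSeq start. Capitals mark the unbroken run of C and T at the start itself, since several snoRNA hosts are known to begin with such a run, as ribosomal protein genes do. The windows are chr5:139274091-139274120 (plus), chr16:2155339-2155368 (minus) and chr4:118278752-118278781 (plus), on GRCh38.p14.
SNHG4: ctcccggctgCCCTTTCCCCTCCggcctct
SNHG19: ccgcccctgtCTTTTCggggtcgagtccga
SNHG8: ctcggcctttCacattcgggaagcgtcggg
The run was 13 bases in SNHG4, 6 in SNHG19 and 1 in SNHG8. In the snoRNA hosts looked at but not printed, it was at least 20 bases in SNHG18 and 0 in LINC02001 and EPB41L4A-AS1. A run of at least 5 bases, counted from a C at the start, was present in 880 of 22114 promoters of genes with a single RefSeq start (3.98%). It was present in 4 of the 57 member promoters with a single RefSeq start (7.02%). These matches are descriptions of the letters only.

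The libraries held between 16.0 M and 18.4 M reads, recovered as whole reads from the FPKM values. The lincRNAs together held between 41303 and 44042 of them, and the median lincRNA had between 93 and 123 reads per library. A value of 0 still allows 3 reads, which for a 1 kb gene is 0.163 to 0.187 FPKM (counting error only). TRPV3 itself had 0.404 ± 0.0400 FPKM in mock and 648 ± 103 FPKM in TRPV3 libraries (mean ± SD, n = 3), a log2 fold change of 8.84 by limma with an adjusted p of 2.7e-07. This is a difference of log2(FPKM + 1), which understates the change at so low a mock level. It was 10.3 with 0.1 added in place of 1, and 10.6 by limma-voom on the recovered reads. The two-sided exact permutation p of TRPV3 was 0.1, the smallest that 3 against 3 libraries allow. TRPV3 replicate 1 stood apart: the chi-square per degree of freedom of its reads against the other 2 TRPV3 libraries was 57.1 and 66.4, against 2.70 between those 2 and 3.72 to 8.22 among mock libraries. Values that leaving it out moved most are given with and without it. Of 13 sebaceous marker genes 9 reached 1 FPKM, with summed levels of 854 to 896 FPKM with mock and 875 to 951 FPKM with TRPV3, while the sebaceous genes AWAT2 and MC5R were under 0.05 FPKM. Of 9 keratinocyte markers 5 reached 1 FPKM (337 to 381 and 363 to 477 FPKM summed; FLG, KRT1 and LOR under 0.05). Markers of melanocytes (0 of 4 at 1 FPKM), fibroblasts (1 of 5), immune cells (1 of 4) and endothelium (1 of 3) summed to under 3 FPKM in every library. The part of keratinocyte-type genes in the results was not tested.

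No lincRNA rose or fell with TRPV3 by the adjusted test. limma on log2(FPKM + 1), run over 12177 genes whose mean reached 1 FPKM, with Benjamini-Hochberg adjustment, called 0 of 129 lincRNAs, and the smallest adjusted p was 0.755. Among all genes tested it called 5 higher (0.0411%) and 0 lower (0.0%). At an unadjusted p under 0.05 there were 11 lincRNAs (8.53%), against 4.48% of all genes tested. limma-voom on the recovered reads also called 0, with 4 lincRNAs at an unadjusted p under 0.05 (3.10%, against 4.48% of all genes tested). Without TRPV3 replicate 1, limma called 0 lincRNAs and its smallest adjusted p was 0.229; over all alternatives the smallest ranged from 0.229 to 0.966.

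The fitted log2 fold changes, TRPV3 against mock, were of about the size of the spread between replicates. They ran from -0.68 to 0.54 over the lincRNAs shown, and none was past 2-fold. These are differences of log2(FPKM + 1), which understate the change of genes near 2 FPKM. The median size of a change, in either direction, was 0.13. Replicates of the mock group had a median SD of 0.13 on the same scale, and replicates of the TRPV3 group 0.19, or 0.10 between TRPV3 replicates 2 and 3 alone. The 95% interval of the change lay within 1 log2 unit on either side of 0 for 123 of 129 lincRNAs, for 112 with a pseudocount of 0.1 and for 107 with limma-voom. For 90 of 129 the limma interval on log2(FPKM + 1) lay within 1.5-fold on either side, and its median half-width was 0.31.

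As a class, the lincRNAs had a median log2 fold change of 0.060, beside 0.012 over all genes tested, 0.016 over 9393 coding genes and 0.015 over 113 antisense RNAs of the same minimum level and length. Of the 129, 80 were above 0 (62.0%), against 53.03% of all genes tested. Without TRPV3 replicate 1 the lincRNA median was 0.0028, with 0.0084 over all genes, and 26 lincRNAs changed sign. With the trend of each library over gene length removed it was -0.044, and with scaling to total recovered reads it was 0.020. Summed, the lincRNAs took 0.243%, 0.258% and 0.253% of reads in mock replicates 1 to 3 and 0.228%, 0.243% and 0.245% in TRPV3 replicates 1 to 3. The groups overlapped, and TRPV3 replicate 1 was lowest. Without the 2 lincRNAs of most reads the shares did not overlap, at 0.166% to 0.168% with mock and 0.160% to 0.161% with TRPV3. As shares of summed FPKM, with all 129 lincRNAs, the groups did not overlap either, at 0.265% to 0.272% with mock and 0.245% to 0.263% with TRPV3. The summed lincRNA FPKM themselves overlapped, at 718 to 756 with mock and 724 to 790 with TRPV3, and were highest in TRPV3 replicate 1. All lincRNAs of the deposited table, of any level, took 0.3318% to 0.3905% of reads with mock and 0.316% to 0.3331% with TRPV3, which overlap. These shares were not tested. In bulk RNA, fewer cells that make a transcript and less of it per cell cannot be told apart.

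**Figure D1:**
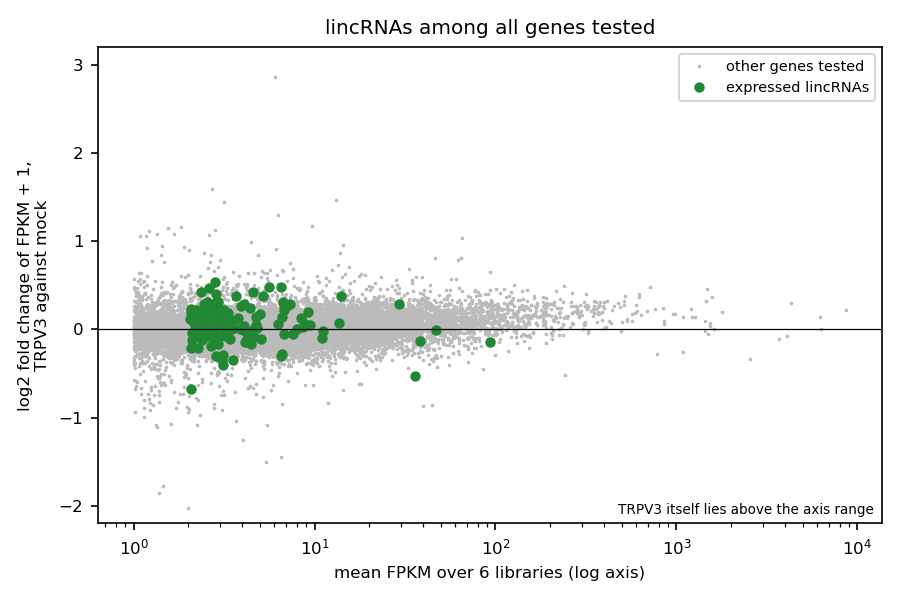
Mean FPKM over 6 libraries (log axis) against the log2 fold change of FPKM + 1, TRPV3 against mock, for 128 lincRNAs (green) and the other genes tested (grey). The lincRNAs lie between -0.68 and 0.54, inside the spread of other genes at the same level; none was called by limma.

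Most of these lincRNAs were near the lower limit of the rule. Their median was 3.13 FPKM, 98 lay between 2 and 5 FPKM, 31 reached 5 FPKM, 9 reached 10 FPKM and 5 reached 20 FPKM. These 5 most abundant held 53.3% of all lincRNA reads and 32.9% of the summed lincRNA FPKM. Just inside the limit were AC073046.1 (mean 2.08 FPKM), AC007785.1 and AL592494.3 (2.05 FPKM), and just outside were AC092368.3 (1.99 FPKM), LINC01714 (1.96 FPKM) and LINC01560 (1.94 FPKM). In 7 members the mock mean alone was under 2 FPKM, and in 3 the TRPV3 mean alone. Because the levels chose the members, they are given as a description.

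NORAD (chromosome 20, 36045622 to 36050960, minus strand, hg38) was the most abundant lincRNA in every library. It stood at 99.3, 104 and 90.2 FPKM in mock replicates 1 to 3 and at 72.9, 97.2 and 96.8 FPKM in TRPV3 replicates 1 to 3. TRPV3 replicate 1 was the lowest of the 6, and the other 2 TRPV3 libraries lay within the mock range. Its log2 difference was -0.14 (SE 0.13, limma adjusted p = 0.755), and -0.0086 without TRPV3 replicate 1.

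AL161431.1, a clone-named gene on chromosome 13 with no role given here, was next at 47.2 ± 2.83 and 47.0 ± 2.90 FPKM (mock and TRPV3, mean ± SD, n = 3). UCA1 (chromosome 19), first described in bladder cancer and active in many epithelial lines, was at 46.0, 37.3 and 36.6 FPKM with mock and 37.6, 35.2 and 36.0 FPKM with TRPV3. Mock replicate 1 was high and the other 5 libraries were within 35.2 to 37.6 FPKM, so the difference of -0.13 did not exceed the mock spread. LINC00857 (chromosome 10) was at 11.2 ± 1.29 and 11.0 ± 1.08 FPKM.

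AC245041.1 (chromosome 10, 47970043 to 47973496, minus strand, 826 bases of exon) had 43.8, 42.2 and 39.7 FPKM with mock and 17.4, 37.1 and 36.7 FPKM with TRPV3. All 3 TRPV3 libraries were lower than all mock libraries, but the size came from 1 of them. Its log2 difference was -0.53 (SE 0.27, limma adjusted p = 0.755), and -0.18 without TRPV3 replicate 1. AC245041.1 lies inside the span of AC245041.2, on the same strand. AC245041.2, a lincRNA whose transcript is 98.7% identical to the coding gene ANXA8 over 1971 bases, was at 9.26 ± 1.10 and 9.62 ± 0.750 FPKM. Its reads are uncertain, since ANXA8 was at 16.5 FPKM and the sources used here do not give how reads that fit both were counted. AC245041.2 was chosen after its values were seen.

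**Figure D2:**
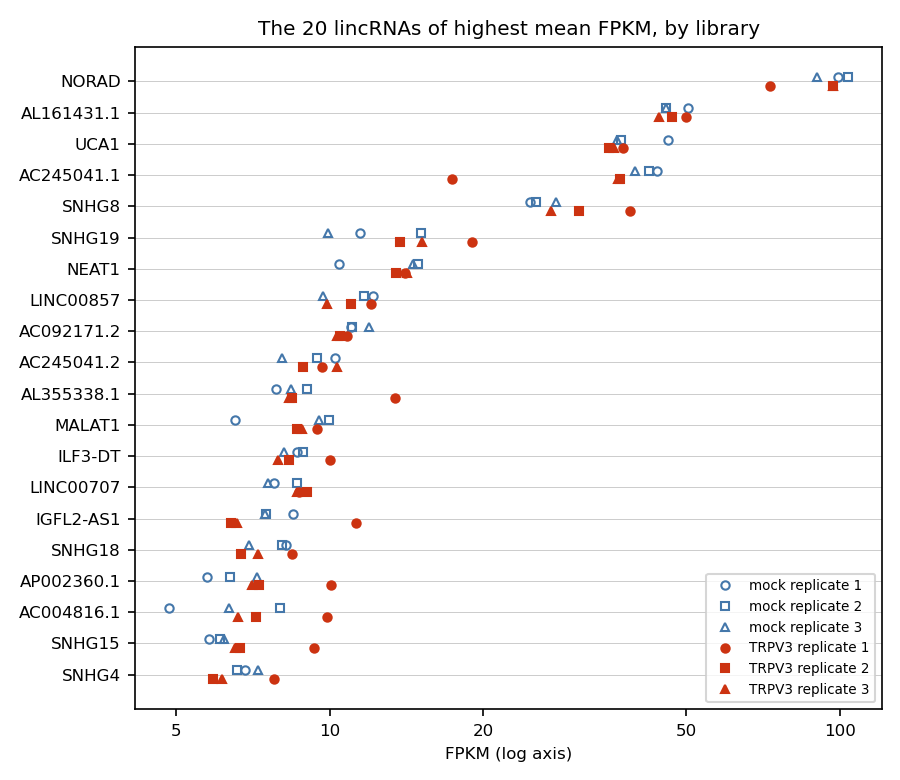
FPKM (log axis) of the 20 most abundant lincRNAs shown, 1 point per library (open mock, filled TRPV3). NORAD leads at 72.9 to 104 FPKM, and mock and TRPV3 points are mixed in most genes.

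NEAT1 and MALAT1, the nuclear body RNAs, lie next to each other on chromosome 11. NEAT1, the scaffold of paraspeckles, was at 10.4, 14.9 and 14.6 FPKM with mock and 14.1, 13.5 and 14.2 FPKM with TRPV3. MALAT1, of nuclear speckles, was at 6.53, 9.98 and 9.53 FPKM with mock and 9.46, 8.65 and 8.81 FPKM with TRPV3. In both, mock replicate 1 was the lowest library and the other 5 lay close together. Their log2 fold changes were 0.077 and 0.062 with all libraries and -0.077 and -0.11 without mock replicate 1, and the limma adjusted p-values with all libraries were 0.834 and 0.880.

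The 3 snoRNA hosts with the largest differences were SNHG8, SNHG19 and SNHG15, whose introns or exons hold RNAs that guide the modification of ribosomal RNA. SNHG8 (chromosome 4), the host of SNORA24, was at 24.7, 25.4 and 27.8 FPKM with mock and 38.8, 30.9 and 27.2 FPKM with TRPV3. SNHG19 (chromosome 16), the host of SNORD60, was at 11.5, 15.1 and 9.95 FPKM with mock and 19.1, 13.7 and 15.2 FPKM with TRPV3. SNHG15 (chromosome 7), the host of SNORA9, was at 5.79, 6.10 and 6.22 FPKM with mock and 9.33, 6.68 and 6.54 FPKM with TRPV3.
In all 3 the first TRPV3 replicate was the highest of the 6 libraries. Groups overlapped in SNHG8 and SNHG19 and did not overlap in SNHG15. Their log2 fold changes were 0.29 (SE 0.13), 0.37 (SE 0.17) and 0.26 (SE 0.13), each with a limma adjusted p of 0.755, and 0.15, 0.25 and 0.11 without TRPV3 replicate 1.

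The other snoRNA hosts had smaller differences, in both directions. SNHG18, on chromosome 5 and the host of SNORD123, was at 7.75 ± 0.692 and 7.46 ± 0.882 FPKM. SNHG4, also on chromosome 5, whose start carries the longest of the 3 runs printed above, was at 6.88 ± 0.332 and 6.61 ± 1.01 FPKM. EPB41L4A-AS1, the host of SNORA13, was at 3.04 ± 0.0583 and 3.62 ± 0.706 FPKM. It shares 1659 exon bases with EPB41L4A on the opposite strand, and the strand setting of the count was not stated in the sources used here. Of the 6 members matched by name to the list of snoRNA hosts, 0 rose and 0 fell, and 4 had a fold change above 0. Their median was 0.22, or 0.091 without TRPV3 replicate 1. LINC02001, which contains SNORD7, is on the list only under its newer symbol SNHG30 and was not counted with it. LINC02001 was at 7.23, 5.53 and 5.91 FPKM with mock and 8.71, 6.24 and 6.04 FPKM with TRPV3. Over the 7 lincRNAs that contain a snoRNA gene, LINC02001 among them, the median was 0.18, or 0.068 without TRPV3 replicate 1. SNHG4, EPB41L4A-AS1 and LINC02001 were singled out after their values were seen.

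None of the 3 microRNA hosts on the list passed the test. MIR222HG, whose microRNAs are printed above, was at 1.98, 2.01 and 2.29 FPKM with mock and 3.17, 2.39 and 2.79 FPKM with TRPV3. Its groups did not overlap, with between 91 and 116 reads in the mock libraries and between 119 and 156 in the TRPV3 libraries. Its log2 difference was 0.29 (SE 0.10, limma adjusted p = 0.755), and 0.21 without TRPV3 replicate 1. These values are of the host transcript, and the mature microRNAs were not measured. MIR22HG, the host of miR-22, was at 3.18 ± 0.243 and 3.28 ± 0.178 FPKM. MIR4435-2HG, known for its part in myeloid cell survival, was at 3.35 ± 0.0884 and 3.14 ± 0.323 FPKM, and 2254 bases of its transcript are 99.3% identical to CYTOR, so reads of these genes are uncertain. The list's median log2 fold change was 0.035, or 0.0028 without TRPV3 replicate 1.

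The remaining lists had few members. Of 3 lincRNAs linked to p53 (NEAT1, PVT1 and TP53TG1) 0 passed the test, with a median log2 fold change of 0.070, or 0.014 without TRPV3 replicate 1. PVT1, the neighbour of MYC, was at 2.75 ± 0.333 and 2.93 ± 0.290 FPKM, and TP53TG1, which responds to DNA damage, at 2.71 ± 0.283 and 2.67 ± 0.191 FPKM. Of 3 lincRNAs linked to inflammation or NF-kB (MIR4435-2HG, MIR22HG and LINC00346) 0 passed, with a median of -0.067, which turned to 0.0028 without TRPV3 replicate 1. LINC00346 was at 2.99 ± 0.0760 and 2.83 ± 0.538 FPKM. Of 4 growth and tumour linked lincRNAs (NORAD, UCA1, LINC00467 and PVT1) 0 passed, with a median of -0.029, which turned to 0.0025 without TRPV3 replicate 1. UCA1 was the 1 member of the epithelial list. Matched by the gene names of the deposited table, the lists together held 17 of the 129 members, and 112 were on none. LINC02001 (SNHG30) is counted among the 112.

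In 12 lincRNAs all 3 TRPV3 libraries were above all mock libraries (9.30%), against 9.49% of all genes tested. In 6 they were all below (4.65%), against 5.39% of all genes tested. Both shares were near those of all genes, so the counts single out no direction. With TPM scaling 6 were above and 9 below, but the shares of all genes were not counted there, so these counts are a description only. Without TRPV3 replicate 1, which is a looser condition, 14 were above (10.9%, against 14.1% of all genes) and 16 below (12.4%, against 10.1%). With the length trend removed, 9 were above, all among the 12, beside 8.27% of all genes, and 11 were below, with all 6 among them, beside 7.31% of all genes.

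The largest separated differences upward were in low, mostly short genes. AC092306.1 (chromosome 19, 310 bases) was at 2.57, 1.59 and 2.12 FPKM with mock and 4.75, 2.70 and 3.13 FPKM with TRPV3, from 8 to 14 and from 15 to 26 reads. Its log2 difference was 0.54 (SE 0.19, limma adjusted p = 0.755), or 0.35 without TRPV3 replicate 1. It lies near CBLC, a ubiquitin ligase gene of epithelia, which had a log2 fold change of 0.14, or 0.066 without that library.
AC007114.1 starts beside AKAP1, whose protein anchors protein kinase A at mitochondria. It was at 2.06, 2.09 and 1.48 FPKM with mock and 3.58, 2.81 and 2.21 FPKM with TRPV3. AKAP1 was at 17.6 ± 0.827 and 16.8 ± 2.72 FPKM, so the pair had fold changes of opposite sign (0.42 and -0.076), and AKAP1 was at 0.058 without TRPV3 replicate 1.

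LINC01637 (chromosome 22, 684 bases) had the smallest unadjusted limma p among the lincRNAs named, 0.0095, and an adjusted p of 0.755. It was at 2.66, 2.16 and 2.49 FPKM with mock and 3.15, 3.27 and 3.34 FPKM with TRPV3, from 24 to 32 and from 38 to 40 reads. The TRPV3 libraries were close together, and the difference of 0.31 (SE 0.088) was 0.33 without TRPV3 replicate 1. Its neighbour CRKL, a signalling adaptor gene, was at 11.4 ± 0.195 and 9.75 ± 1.41 FPKM (-0.21, or -0.099 without TRPV3 replicate 1), and all its TRPV3 libraries were below all mock libraries.
AC008946.1 (chromosome 19, 421 bases), near the gene of the RNA-binding protein ELAVL1, was at 2.43, 3.07 and 2.09 FPKM with mock and 3.10, 3.45 and 3.53 FPKM with TRPV3. This was a difference of 0.31 (SE 0.12), or 0.36 without TRPV3 replicate 1. ELAVL1 was at 20.8 ± 0.480 and 21.4 ± 0.594 FPKM. In LINC01637 and AC008946.1 TRPV3 replicate 1 was the lowest of the TRPV3 libraries.

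In AL390728.6 and AC026401.3 TRPV3 replicate 1 was far above the rest. AL390728.6 (chromosome 1) was at 2.88, 3.07 and 3.13 FPKM with mock and 6.19, 3.50 and 3.40 FPKM with TRPV3, and its difference of 0.38 was 0.14 without that library. AC026401.3 (chromosome 16), which lies inside NDE1 on the same strand, was at 5.75, 5.59 and 6.10 FPKM with mock and 9.70, 6.21 and 6.74 FPKM with TRPV3. Its difference of 0.31 was 0.13 without that library. NDE1, a gene of the dynein machinery, had a log2 fold change of -0.042, or 0.019 without it. ZNF124, the zinc finger gene nearest AL390728.6, was at 1.04 ± 0.227 and 1.05 ± 0.0835 FPKM. SNHG15 lies near CCM2, a scaffold gene of vascular junctions, which was at 6.92 ± 0.250 and 7.65 ± 1.30 FPKM. Its log2 difference of 0.12 became -0.0037 without TRPV3 replicate 1.

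LINC00467 had differences in the same direction from more reads, with between 314 and 429 in the first replicates of each group. It was at 4.02, 4.20 and 3.68 FPKM with mock and 5.47, 4.57 and 4.55 FPKM with TRPV3, a difference of 0.24 (SE 0.094), or 0.17 without TRPV3 replicate 1. The other separated lincRNAs above mock were FLVCR1-DT (0.19), OLMALINC (0.15) and LINC00707 (0.13), named after their values were seen. FLVCR1-DT is divergent to the haem exporter gene FLVCR1. LINC00707 was at 7.99 ± 0.571 and 8.80 ± 0.213 FPKM.

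Among the 6 lincRNAs that were lower in all TRPV3 libraries, FAM230C (chromosome 13) was at 4.62, 3.47 and 3.04 FPKM with mock and 2.50, 2.21 and 2.93 FPKM with TRPV3. Its log2 difference was -0.40 (SE 0.14, limma adjusted p = 0.755), and -0.39 without TRPV3 replicate 1. LINC01186 (chromosome X) was at 3.37, 3.54 and 2.89 FPKM with mock and 2.72, 2.05 and 2.65 FPKM with TRPV3, a difference of -0.30.
AL035661.1 (chromosome 20) was at 3.43, 3.45 and 3.69 FPKM with mock and 3.37, 2.20 and 2.60 FPKM with TRPV3. Its first TRPV3 replicate was close to the mock libraries, and the difference of -0.29 (SE 0.12) was -0.42 without it. This gave the smallest adjusted p of a lincRNA in that setting, 0.229 by limma, beside 0.755 with all libraries. Its neighbour APMAP, a membrane protein gene of fat cells, was at 63.2 ± 2.69 and 61.7 ± 1.53 FPKM. AC092171.2 (chromosome 7) was at 11.3 ± 0.522 and 10.5 ± 0.270 FPKM, a difference of -0.095, and FBXL18, an F-box gene overlapping it in the other orientation, had -0.31, or -0.033 without TRPV3 replicate 1.

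AP001527.2 (chromosome 11, 102109827 to 102110457, minus strand) starts 4 bases from the start of YAP1, the coactivator at the end of the Hippo pathway, and runs the opposite way. The YAP1 promoter from RefSeq (GRCh38.p14, chr11:102110197-102110496, plus strand) is printed to show how close these starts are. The 5 bases in capitals run from the lincRNA's start at 102110457 to that of YAP1 at 102110461.
YAP1 promoter: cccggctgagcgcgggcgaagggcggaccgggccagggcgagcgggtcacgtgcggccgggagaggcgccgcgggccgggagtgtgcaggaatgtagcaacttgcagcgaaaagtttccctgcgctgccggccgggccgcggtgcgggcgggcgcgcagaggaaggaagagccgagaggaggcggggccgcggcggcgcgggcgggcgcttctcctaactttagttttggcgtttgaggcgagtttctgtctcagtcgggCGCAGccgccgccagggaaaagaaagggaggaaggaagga
AP001527.2 was at 4.33, 4.79 and 3.22 FPKM with mock and 2.70, 3.19 and 3.08 FPKM with TRPV3. YAP1 was at 46.5, 43.6 and 37.9 FPKM with mock and 27.4, 40.7 and 40.2 FPKM with TRPV3. The lincRNA was lower in all TRPV3 libraries (the nearest pair stood at 3.22 and 3.19 FPKM), while the YAP1 groups overlapped. The log2 fold changes were -0.35 (SE 0.13) and -0.25 (SE 0.17), each with a limma adjusted p of 0.755, and -0.29 and -0.071 without TRPV3 replicate 1.

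**Figure D3:**
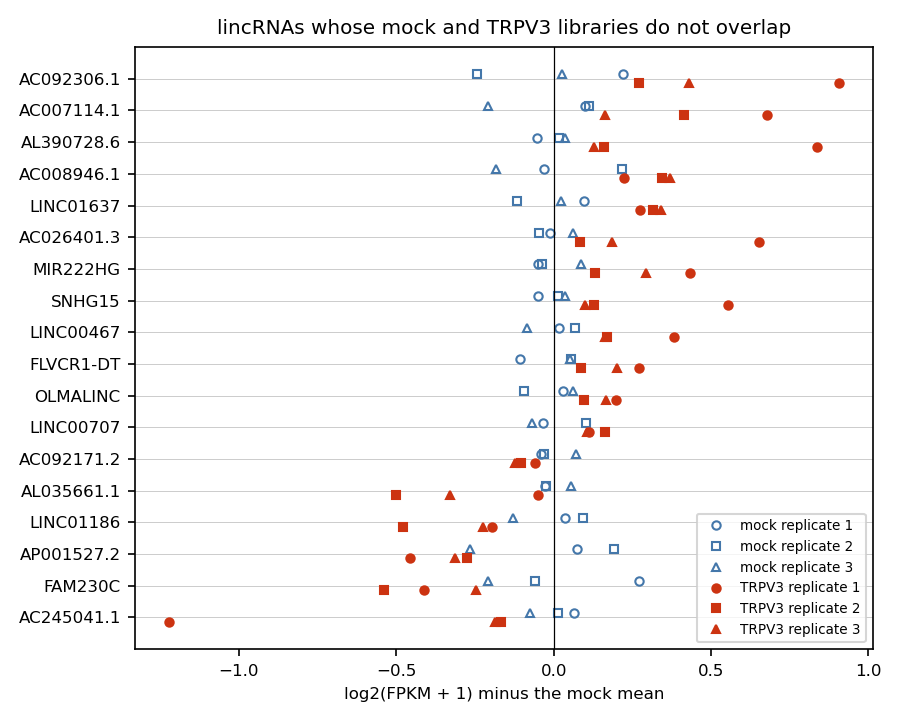
log2(FPKM + 1) minus the mock mean, 1 point per library (open mock, filled TRPV3), for the 18 lincRNAs whose groups did not overlap. The 12 above mock reach a mean difference of 0.54 and the 6 below one of -0.53, with TRPV3 replicate 1 far out in AC245041.1, AL390728.6 and AC026401.3.

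Divergent pairs were common among these lincRNAs. Of the 129, 46 started within 5 kb of the start of a coding gene on the opposite strand, in the opposite direction. In 9 of these the lincRNA began inside the coding gene and ran back across its start, so the genes overlap. Among the 129, 8 have names ending in DT, for divergent transcript. In 43 of these pairs both genes were tested, and in 23 the fold changes had the same sign. Across the 43 pairs Pearson's r was 0.097, given as a description because all pairs come from the same 6 libraries. SNHG19 and TRAF7, a ubiquitin ligase gene named here after its values were seen, start 340 bases apart, and their fold changes were 0.37 and -0.12. The median over the 46 lincRNAs was 0.059, beside 0.060 over the other 83.

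**Figure D4:**
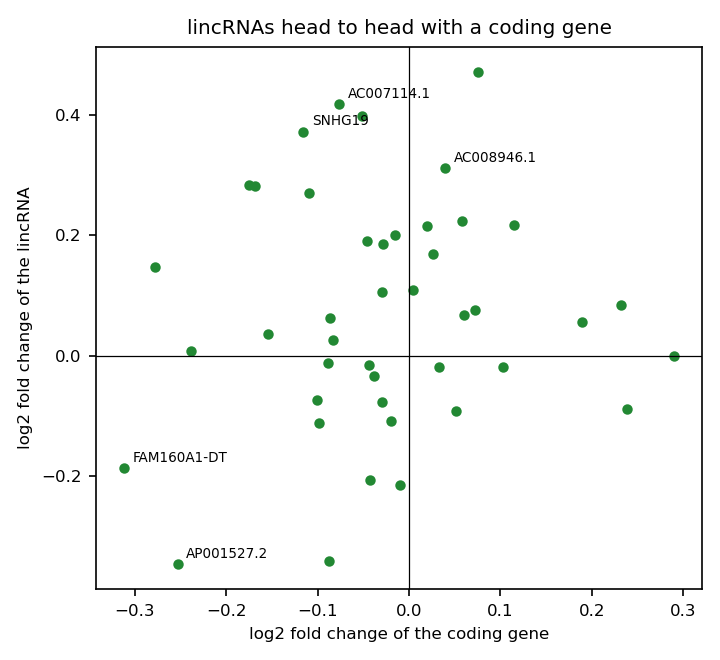
log2 fold change of FPKM + 1, TRPV3 against mock, of a coding gene (horizontal) and of the lincRNA that starts head to head with it (vertical), for 43 pairs. The points show no common slope (r = 0.097), and 23 pairs share a sign.

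Promoters of the 57 lincRNAs with a single RefSeq start were searched for 4 motifs. Windows of 250 bases before to 50 after the start were searched on both strands. The AP-1 motif TGANTCA was present in 4 of 57 (7.02%) and in 8.05% of all 22114 promoters. The heat shock element GAANNTTC was present in 1 of 57 (1.75%) and 7.04% of all, and the NF-kB motif GGANTTTCC in 0 of 57 and 1.66% of all. TATAAA was present in 4 of 57 (7.02%) and 12.7% of all.

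The lincRNAs were short and simple in structure beside the other genes tested. Their median exon length was 1648 bases, against 4593 bases over all genes tested, and 44 had a single exon block. Of the 129, 45 were under 1 kb, 51 from 1 to 3 kb and 33 of at least 3 kb. In 26 the span of the lincRNA overlapped that of its nearest coding gene, on the same or the opposite strand. In 33 some exon bases were shared with another gene, in 28 on the opposite strand, and in 13 with a gene of at least 1 FPKM, so those reads cannot be assigned with certainty.

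Length moved with the fold changes. The median log2 fold change was 0.22 for lincRNAs under 1 kb, 0.049 from 1 to 3 kb and 0.0014 from 3 kb. For all genes tested the medians of these length classes were 0.084, 0.12 and -0.020. In the same classes, TRPV3 replicate 1 exceeded the mean of TRPV3 replicates 2 and 3 by a median of 0.28, 0.22 and 0.10. Over all genes tested these excesses were 0.23, 0.31 and -0.067. Without TRPV3 replicate 1 the medians of the lincRNA classes were 0.10, -0.012 and -0.0086. At an unadjusted limma p under 0.05 were 7 of the 45 lincRNAs under 1 kb (15.6%), beside 14.0% of all genes under 1 kb. The part of length and of TRPV3 replicate 1 in the single fold changes was not tested beyond these values.

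TRPV3 replicate 1 was the highest of the 6 libraries in 64 lincRNAs and the lowest in 20. Over all genes tested it was highest in 40.9% and lowest in 36.0%. The 4 lincRNAs in which it lay farthest from the other TRPV3 libraries went in both directions. AC073046.1 (390 bases) had 21, 14 and 17 reads with mock and 0, 11 and 22 with TRPV3, so its level was 0 in that library alone. FAM160A1-DT was at 3.18, 2.41 and 2.91 FPKM with mock and 1.11, 3.28 and 3.19 FPKM with TRPV3. LINC01615 was at 2.05, 1.93 and 2.08 FPKM with mock and 3.66, 1.64 and 1.57 FPKM with TRPV3. The fourth was AC245041.1, described above.
FAM160A1, the coding gene that runs away from FAM160A1-DT and was looked at after its values were seen, had 1.24 FPKM in TRPV3 replicate 1 and between 3.46 and 4.56 FPKM in the other 5 libraries. The lincRNA and the coding gene were thus low in the same library.

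**Figure D5:**
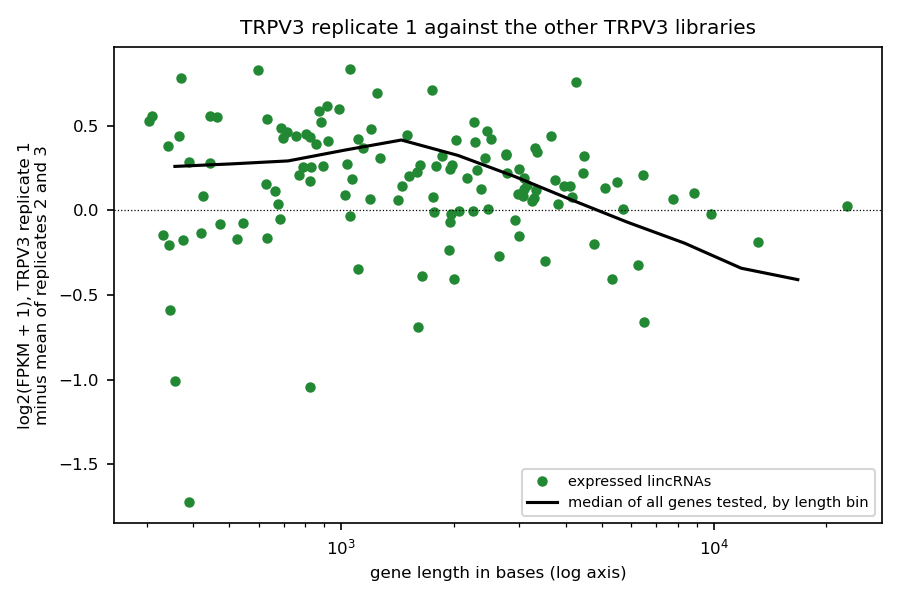
Gene length in bases (log axis) against TRPV3 replicate 1 minus the mean of TRPV3 replicates 2 and 3, in log2(FPKM + 1), for the lincRNAs shown (green), with the median of all genes tested by length bin (line). lincRNAs under 1 kb have a median excess of 0.28, and those of at least 3 kb one of 0.10.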

How the data were processed

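The deposited table gives FPKM per gene and library with gene lengths (bases) and coordinates, per the file headers. Per the submitters' processing notes, HISAT2 2.0.5 and hg38 were used. Which counter was run, and with which strand option, was not given in the sources used here. Per the labels' protocols, libraries were made from total RNA with a NEBNext Ultra kit. FPKM times length gave whole multiples of 1 read for 100% of values (tolerance 0.02), so reads were recovered. The depth used to scale the FPKM differed from the recovered total, by -3.93% in TRPV3 replicate 1 and by 4.78% in mock replicate 3. Coordinates and lengths were compared with GENCODE 29, which matched for all 129 members. Promoters and microRNAs came from RefSeq (GRCh38.p14); 68 members matched a promoter entry.

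Values were analysed as log2(FPKM + 1) with limma 3.58.1 (R 4.3.3) over 12177 genes whose mean reached 1 FPKM, with a variance trend over the mean level and p-values adjusted by Benjamini-Hochberg; calls were made at an adjusted p under 0.05. The test was tried on simulated data. Members and lists were chosen with earlier results of these data known. Lists covered hosts of snoRNAs and of microRNAs, nuclear body, p53, inflammation, epithelial and growth linked lincRNAs, and cell type markers. Named were TRPV3, the 8 members of highest mean, up to 8 separated members with the largest difference in each direction and their nearest expressed coding genes within 50 kb. Also named were up to 4 members per list, the 3 on either side of the level threshold, and the 4 in which TRPV3 replicate 1 lay farthest from the other TRPV3 replicates. Alternatives were no filter or one of 5 FPKM, 0.1 as pseudocount, TPM, quantile and total-read scaling, no variance trend, a replicate block, limma-voom, removal of a length trend (lowess, span 0.3), leaving out each library and other member thresholds. Figures used Python 3.11.15 and matplotlib 3.10.9. No other column of samples was present.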

Additional observations from a re-analysis of the deposited data

How the results depend on the processing

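The limma count of lincRNAs called was 0 under every alternative run. The count of lincRNAs with all TRPV3 libraries above mock, 12 with all libraries, was 3 with a filter of 5 FPKM or a member minimum of 5 FPKM (31 lincRNAs each), 6 with TPM or total-read scaling and 21 with a member minimum of 1 FPKM (266 lincRNAs). The count below, 6, was 9 with TPM and 7 with total-read scaling, so that with TPM 6 were above and 9 below. It was 2 with either 5 FPKM minimum, 11 with the length trend removed, 17 with voom without TRPV3 replicate 1 and 15 with a member minimum of 1 FPKM. Leaving out 1 library at a time gave 14 to 28 above and 6 to 16 below, a looser condition since fewer libraries must be separated. The count above was 25 without mock replicate 2, 20 without mock replicate 3, 19 without TRPV3 replicate 2 and 28 without TRPV3 replicate 3. The count below was 13 and 10 without mock replicates 1 and 3, and 16, 10 and 12 without TRPV3 replicates 1, 2 and 3. Shares of all genes were counted only with all libraries, without TRPV3 replicate 1 by limma and with the length trend removed. The other counts above and below have no such share beside them and are a description only. The median log2 fold change, 0.060, was -0.023 with TPM, 0.020 with total-read scaling and -0.044 with the length trend removed. Leaving out 1 library gave 0.0028 to 0.0995. The summed share difference, -0.0127 percentage points, was -0.0170 to -0.00728 with 1 library left out, -0.00683 without the 2 lincRNAs of most reads and -0.0125 as a share of FPKM. TPM scaling moved the median of all genes to -0.068 and total-read scaling to -0.028.

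Whether same-numbered libraries were paired is not known. Their deviations from their own group means, over the genes tested, had correlations of -0.27, -0.039 and -0.17. TRPV3 replicate 1 stood apart in its group, so these values cannot settle the pairing. The replicate block called 0 lincRNAs, left 12 above and 6 below and a median of 0.060, and 7 of 129 lincRNAs had an unadjusted p under 0.05, against 3.08% of all genes tested.

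Of 956 values of 58 single genes under alternatives 902 kept their direction and their side of the threshold and 54 changed sign, in genes with small changes or with a deviating library. With TPM scaling ELAVL1 was at -0.054, NEAT1 -0.014, MALAT1 -0.026, AC245041.2 -0.034, MIR22HG -0.040, PVT1 -0.0041, LINC01615 -0.0066 and ZNF124 -0.039. With quantile scaling ELAVL1 was at -0.018 and TP53TG1 at 0.0006. With total-read scaling ELAVL1 was at -0.0066, MIR22HG -0.0019 and ZNF124 -0.015. With the length trend removed AC245041.2 was at -0.048, MIR4435-2HG 0.044, MIR22HG -0.044, LINC01615 -0.065 and ZNF124 -0.015. With voom without TRPV3 replicate 1 AKAP1 was at 0.066, LINC02001 -0.0087, NDE1 0.028, FAM160A1 0.10, LINC00346 0.056, FAM160A1-DT 0.19, LINC01615 -0.32 and AL592494.3 -0.10. Leaving out 1 library at a time gave ranges that crossed 0: AL161431.1 -0.051 to 0.042, AKAP1 -0.15 to 0.058, NEAT1 -0.077 to 0.16, LINC00857 -0.11 to 0.049, AC245041.2 -0.031 to 0.12, MALAT1 -0.11 to 0.16, SNHG18 -0.13 to 0.014, CCM2 -0.0037 to 0.18, SNHG4 -0.16 to 0.0093 and LINC02001 -0.0095 to 0.24. The same held for NDE1 -0.082 to 0.019, FAM160A1 -0.58 to 0.079, MIR22HG -0.0029 to 0.080, LINC00346 -0.16 to 0.040, TP53TG1 -0.067 to 0.042, FAM160A1-DT -0.36 to 0.15, LINC01615 -0.21 to 0.22, AL592494.3 -0.070 to 0.22, LINC01560 -0.097 to 0.033 and ZNF124 -0.056 to 0.096. The cause was not tested. With a median of 93 to 123 reads per lincRNA and library and 3 libraries a group, the limma interval lay within 1.5-fold of no change, on log2(FPKM + 1), for 90 of 129 lincRNAs.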

Other observations

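HCG11, a lincRNA of chromosome 6 named after its values were seen, shares most of its sequence with NORAD. The transcripts aligned at 90.4% identity over 4660 bases, and HCG11 held the Pumilio motif TGTANATA 16 times in 5696 bases, against 15 in NORAD. Of the 128 lincRNA transcripts searched, 110 held none and NEAT1, with 6 in 22743 bases, was the only other with more than 2. Despite this likeness NORAD was at 97.7 ± 6.94 FPKM with mock and HCG11 at 2.50 ± 0.118 FPKM (mean ± SD, n = 3), and with TRPV3 at 89.0 ± 13.9 and 2.42 ± 0.132 FPKM. HCG11 was at 2.43 FPKM in TRPV3 replicate 1, inside the range of the other libraries, whereas NORAD was lowest there.

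The snoRNA host list held 23 tested genes of any type, lincRNA or not, matched by name and so without LINC02001 (SNHG30). Of these 0 passed limma's adjusted test, 2 had an unadjusted p under 0.05, 17 had a fold change above 0 and 7 had all TRPV3 libraries above mock (against 9.49% of all genes tested). The median log2 fold change was 0.18, or 0.068 without TRPV3 replicate 1, when 12 of 23 were above 0. TRPV3 replicate 1 was the highest of the 6 libraries in 18 of the 23. Its part in the median was not tested beyond these values.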
